A study of Homo sapiens with 20 samples.

Results

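Chromatin loops of H4 88-1 cells were compared with those of 42MGBA 53-1 cells, which are STAG2-corrected derivatives of different glioblastoma cell lines. A loop is a pair of 5 kb stretches of DNA, the anchors, that were joined in Hi-C more strongly than their distance and sequence would give, and its strength is the signal that the authors computed for that pair. The 100000 strongest anchor pairs of each line were merged by requiring the same 2 anchors. The result was 151046 pairs, which is 26.4% of the 572000 anchor pairs found in any of the 4 loop lists of the series. Where only 1 list held a pair, the other line was assigned the minimum of its own list, and the fold difference then states the least it can be.

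Hi-C was done on 2 biological replicates of each of 4 cell lines, and 1 list of 300000 pairs is given for both replicates of a line. H4 and 42MGBA are established human brain tumor lines, each with a naturally occurring truncating STAG2 mutation (genotype STAG2-mutant). Clones of them in which gene editing had corrected that mutation (genotype STAG2-WT) are named H4 88-1 and 42MGBA 53-1. All were grown in the same serum-containing medium without treatment. Each corrected line is thus 1 clone, and clone, line of origin and chromosome content cannot be told apart in a comparison of the 2. With 1 list per line there was no spread between replicates and no test, so all differences below describe these lists, and an SD is over chromosomes. No pair of the merged set lay at the start of STAG2, and the lists hold no RNA, so that neither the correction nor the labelled tissue could be checked in them.

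Cohesin is a ring-shaped protein complex that extrudes loops of chromatin, and STAG1 and STAG2 are alternative subunits of it. Extrusion halts where CTCF is bound, typically at a pair of CTCF motifs that point toward each other, called convergent. Loops bring enhancers close to promoters, and the set of loops at a gene differs between cell types along with the enhancers and the chromatin state of the region.

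The CTCF core consensus has a direction, so the sequences at a loop's ends show which way its motifs point. Sites are shown from 3 loops with a match at both anchors, namely a loop listed in both lines (VIM), a loop restricted to H4 88-1 (PIK3R1) and a loop restricted to 42MGBA 53-1 (PCDHA4). They are followed by sites of other loops described below. Capitals mark the match, each site is 30 bases of GRCh37 (hg19) written 5′ to 3′ on the strand given, and a match says nothing about whether CTCF was bound.
VIM loop, left anchor, CUBN intron, chr10:16885446-16885475, plus strand: agaaatgcaCCACTAGATGGCactgtcttt
VIM loop, right anchor, VIM start, chr10:17272820-17272849, minus strand: gtcttcccgCCACTAGAGGGCtttacgcgc
PIK3R1 loop, left anchor, PIK3R1 start, chr5:67582317-67582346, plus strand: tcagttctaCCAGCAGAGGGCtcccttttt
PIK3R1 loop, right anchor, no protein-coding gene, chr5:68258883-68258912, minus strand: gtccattcaCCAGCAGAGGGCtctctcctt
PCDHA4 loop, left anchor, PCDHA4 start, chr5:140187220-140187249, plus strand: tctcggtttCCACTAGAGGGCgcctcggat
PCDHA4 loop, right anchor, no protein-coding gene, chr5:140419939-140419968, minus strand: gatctttaaCCAGCAGAGGGCgagtcgact
IQCJ-SCHIP1 loop, left anchor, no protein-coding gene, chr3:158563720-158563749, plus strand: tccacctgaCCACTAGGTGGCaataaagac
SOX2 loop, left anchor, SOX2 start, chr3:181427479-181427508, plus strand: gcgaatctaCCAGCAGGGGGCgcaccagcc
MAN1A2 loop, right anchor, GDAP2 exon, chr1:118438318-118438347, minus strand: gcgtatgagCCACTAGGGGGCaccaaggaa

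The 3 loops shown at both ends have a plus-strand match on the left and a minus-strand match on the right, which is the convergent arrangement. Of the 52670 anchors of the merged pairs, 5.53% held the consensus. The share was 7.06% of the 22274 anchors of pairs in the top 100000 of both lines, 6.71% of the 16975 anchors of pairs restricted to H4 88-1, and 4.76% of the 15103 anchors of pairs restricted to 42MGBA 53-1 (an anchor can belong to several of these sets). Few pairs had a match in a single direction at both anchors. Among those that did, 276 of 378 (73.0%) were convergent in the pairs strong in both lines, 80 of 145 (55.2%) in those restricted to H4 88-1 and 34 of 63 (54.0%) in those restricted to 42MGBA 53-1. Pairs in the top 100000 of 1 line and listed lower in the other had similar shares to the restricted ones. These were 87 of 150 (58.0%) for H4 88-1 and 61 of 103 (59.2%) for 42MGBA 53-1. The shared set, strong in both lines, thus held a higher share of convergent pairs than every other set, beside 538 of 839 (64.1%) over all merged pairs. Its pairs were also stronger, with medians of 8.21 in H4 88-1 and 7.73 in 42MGBA 53-1, against 6.97 and 6.41 for the restricted pairs of each. Strength and sharing were not separated here. Neighbouring pairs can share anchors, so these counts are not counts of separate loops. The share with matches in the same direction was 23.8% in the shared set, 39.3% in H4 88-1 restricted pairs and 41.3% in 42MGBA 53-1 restricted pairs. In the pairs listed lower in the other line it was 38.0% and 35.0%.

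Of the 151046 pairs, 48954 (32.4%) were among the 100000 strongest of both lines. A further 24347 were in the top of H4 88-1 and lower in the 42MGBA 53-1 list, and 26935 were in the top of 42MGBA 53-1 and lower in the H4 88-1 list. The others were in the top of 1 line and absent from all 300000 pairs of the other, and these are called line-restricted. They numbered 26699 in H4 88-1 (17.7% of all pairs) and 24111 in 42MGBA 53-1 (16.0%). The lists end at different strengths, since the lowest value was 4.44 in H4 88-1 and 4.28 in 42MGBA 53-1, and the strength at rank 100000 was 6.21 and 5.81, with the pair at the next rank equal to it at this precision. A line-restricted pair was thus mostly a pair of middling rank. Its median strength was 6.97 in H4 88-1 (quartiles 6.52 and 7.77, highest 25.03) and 6.41 in 42MGBA 53-1 (quartiles 6.06 and 7.05, highest 16.8). A strength of 10 or more was reached by 1191 restricted pairs of H4 88-1 and 349 of 42MGBA 53-1.

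Sharing by rank was lowest at the very top of the lists. Of the 1000 strongest pairs of each line, 303 were among the 1000 strongest of the other, but 22 of those of H4 88-1 and 2 of those of 42MGBA 53-1 were absent from the other list. In the top 10000, 42.1% were shared, with 597 and 313 absent, and in the full lists 50.03% were shared. The most intense loops were therefore nearly always listed in the other line, though at another rank. The pair with the highest geometric mean of both strengths joined chr11:130302013-130306571 with chr11:130732102-130737034, an anchor in an SNX19 exon, at 29.2 in H4 88-1 and 27.5 in 42MGBA 53-1. On another chromosome, the pair that joined an anchor beside the CEBPB start, chr20:48801927-48806783, with chr20:49075457-49080317 had 22.3 in H4 88-1 and 33.7 in 42MGBA 53-1, and the latter is the highest strength of the 42MGBA 53-1 list. CEBPB encodes a transcription factor of inflammatory and mesenchymal programs.

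The 100236 pairs listed in both lines had correlated strengths (r of log2 strengths 0.339 over pairs, which share anchors and neighbours and are not independent). Over all 151046 pairs, the median log2 ratio of H4 88-1 to 42MGBA 53-1 strength was 0.081 (SD of the chromosome medians 0.34, quartiles of the pairs -0.40 and 0.58). In H4 88-1, 5887 pairs (3.90%) were 2-fold or more stronger, and in 42MGBA 53-1, 1683 (1.11%), of which 3492 and 944 were line-restricted. The excess in H4 88-1 depended on the scale. With the lists scaled to the same median over the shared top pairs the counts were 3896 and 2777, and with each ratio centred on the median of its chromosome they turned to 2947 and 4779.

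**Figure D1:**
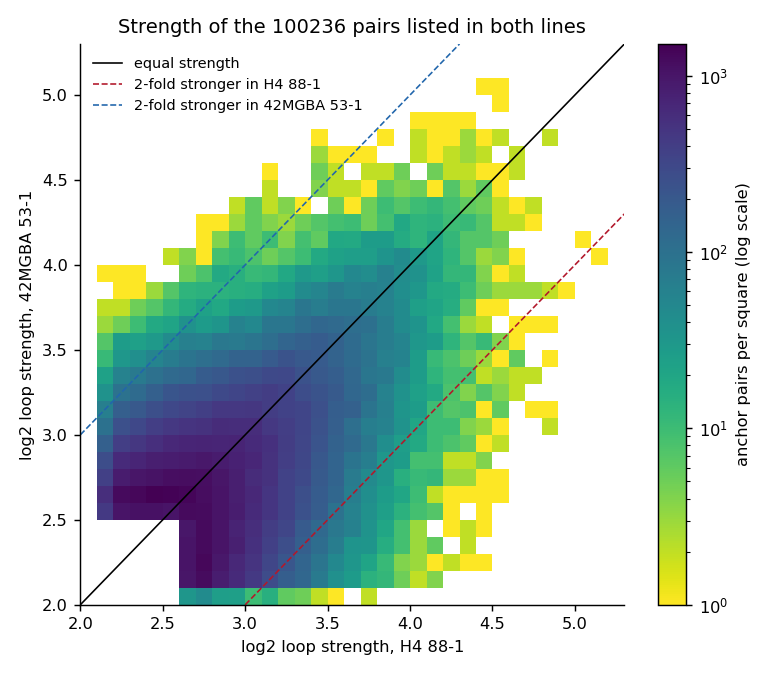
Number of anchor pairs in each square of log2 loop strength in H4 88-1 (x axis) and 42MGBA 53-1 (y axis), for the 100236 pairs listed in both lines, with color on a log scale. The solid line marks equal strength and the dashed lines a 2-fold difference. The empty lower left corner is where a pair is in the top of neither line, and 2395 pairs lie past the H4 88-1 line and 739 past the 42MGBA 53-1 line.

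Among the pairs listed in both lines, the largest fold differences were 4.90 in favor of H4 88-1 and 3.29 in favor of 42MGBA 53-1. The former joined chr3:158561598-158566398, the anchor with the plus-strand site printed above for IQCJ-SCHIP1, to chr3:158973951-158978942 in an intron of IQCJ and IQCJ-SCHIP1, at 22.6 against 4.61. IQCJ-SCHIP1 is a readthrough gene that joins exons of IQCJ and SCHIP1. The same left anchor joined the neighbouring chr3:158969274-158973950 at 20.4 in H4 88-1 and was absent there from the 42MGBA 53-1 list, a difference of at least 4.77-fold. The parental lists had both pairs, with 18.3 and 17.0 in H4 and with 11.1 and 9.50 in 42MGBA. The largest difference toward 42MGBA 53-1 joined the TFAP2C start, chr20:55203068-55208057, to chr20:55653840-55658809, at 14.9 against 4.54. TFAP2C encodes a transcription factor of neural crest and epithelial development.

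Line-restricted pairs differed in size, which is the distance between anchor midpoints. The median was 380 kb in H4 88-1 (quartiles 248 and 566) and 242 kb in 42MGBA 53-1 (quartiles 140.3 and 393), beside 292 kb for the pairs strong in both. The difference of 138 kb had an SD of 120.2 kb over chromosomes, and the H4 88-1 median was the larger on 21 of 23 chromosomes, the exceptions being 20 and 21. The lines differed most among short loops. Under 50 kb, 53.5% of the 2630 pairs were restricted to 42MGBA 53-1 and 9.01% to H4 88-1. From 400 to 800 kb, 24.6% of 42170 pairs were restricted to H4 88-1 and 11.4% to 42MGBA 53-1. The median log2 ratio ran from -0.43 under 50 kb to 0.28 at 400 to 800 kb, and from -0.38 to 0.097 when centred on each chromosome.

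The STAG2-mutant parental lists, which the merging did not use, also rose with size, but over a narrower range. Over the same pairs their median log2 ratio of H4 to 42MGBA was -0.34 under 50 kb and -0.019 at 400 to 800 kb. GC content also differed at short range. In pairs under 100 kb the median GC of the anchors was 47.7% in pairs strong in both lines, 48.4% in those restricted to H4 88-1 and 40.9% in those restricted to 42MGBA 53-1, whereas from 400 to 800 kb the values were 41.3%, 41.7% and 40.6%. The part of GC content in the size difference was not tested.

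**Figure D2:**
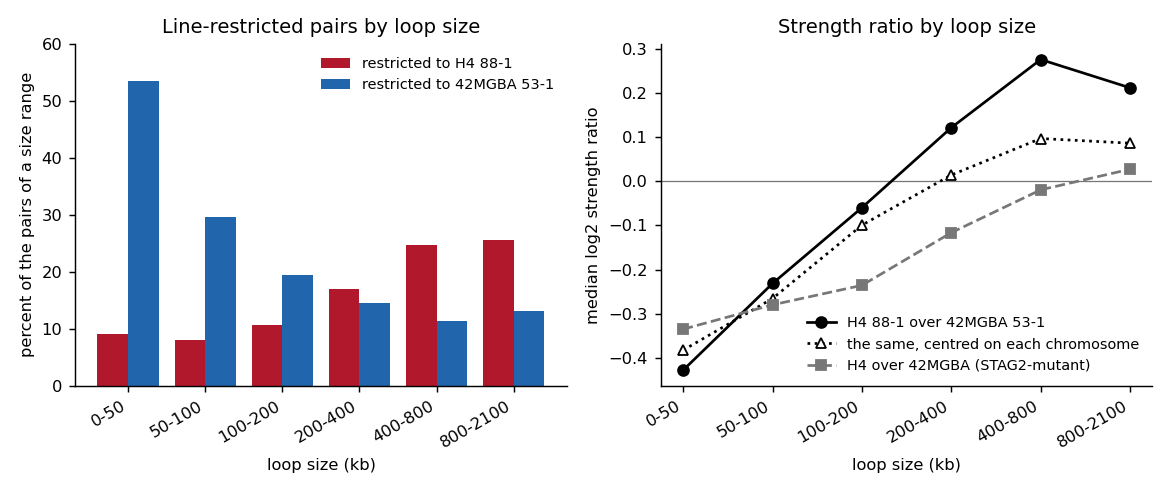
Left, percent of the merged pairs of each size range (x axis, kb) that were restricted to H4 88-1 (red bars) or to 42MGBA 53-1 (blue bars). Right, median log2 strength ratio by size for the corrected lines (circles), for the same centred on each chromosome's median (triangles) and for the parental lines (squares); restricted pairs of 42MGBA 53-1 fall from 53.5% to 11.4% of a range as size rises to 400 to 800 kb, and all 3 curves rise with it.

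The difference also varied by chromosome. The median log2 ratio ran from -0.41 on chromosome 14 to 0.61 on chromosome X, above 0 on 15 chromosomes and below 0 on 8. On chromosome X, 59.2% of 757 pairs were restricted to H4 88-1 and 3.43% to 42MGBA 53-1. Chromosomes 11, 17 and 13 followed with 39.1%, 38.5% and 32.2% restricted to H4 88-1. The opposite held on chromosomes 15, 21 and 14, where 30.5%, 29.2% and 29.1% were restricted to 42MGBA 53-1 and 5.48%, 3.01% and 2.39% to H4 88-1. The number of pairs a line placed in its top 100000 moved in the same way, with 6599 in H4 88-1 and 3573 in 42MGBA 53-1 on chromosome 11, and 2946 and 7135 on chromosome 14. A loop strength that shifts over a whole chromosome cannot be told apart here from a difference in the number of its copies, so chromosome values are given below beside some genes, and their part in those results was not tested.

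**Figure D3:**
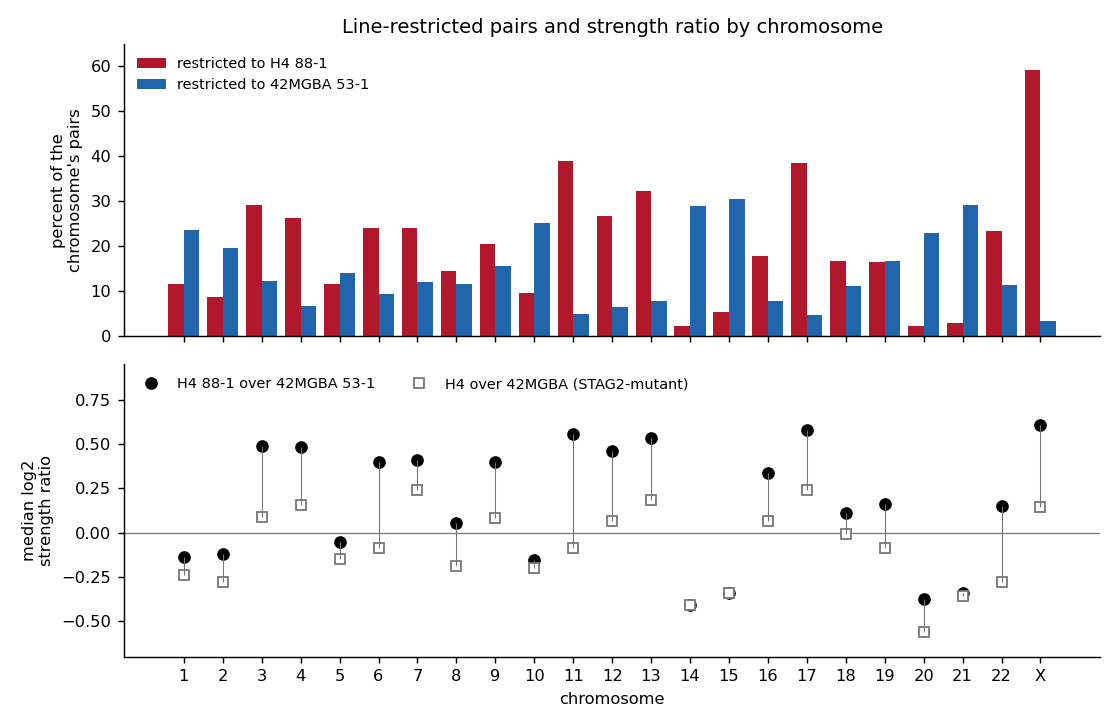
Top, percent of each chromosome's merged pairs restricted to H4 88-1 (red) or to 42MGBA 53-1 (blue). Bottom, median log2 strength ratio of each chromosome in the corrected lines (filled circles) and in the parental lines (open squares), joined by a line; the 2 have the same sign on 17 of 23 chromosomes, and chromosome 11 moves from -0.085 in the parental lines to 0.56 in the corrected lines. The lists are not scaled to each other. Over all merged pairs the median was 0.081 in the corrected and -0.13 in the parental lines, and this gap enters each chromosome's 2 values.

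Much of the difference between the corrected lines was present in the parental lists. Of the pairs restricted to H4 88-1, 53.3% were listed in H4 and absent from 42MGBA, against 12.8% of all 151046 pairs. Of those restricted to 42MGBA 53-1, 67.1% were listed in 42MGBA and absent from H4, against 16.9% of all pairs. A further 38.2% and 17.0% were listed in both parental lines, and 6.78% and 14.6% in neither. Of the pairs 2-fold or more stronger in H4 88-1, 91.8% had the same direction in the parental lists, with a parental median of 0.60. Of those 2-fold or more stronger in 42MGBA 53-1, 98.9% did, with a parental median of -1.05. Over all pairs with a parental ratio, 77.8% had the same sign in the corrected and the parental comparison. The parental difference itself reached 2-fold for 16.9% of the H4 88-1 set and 56.8% of the 42MGBA 53-1 set. Ratios of the 2 comparisons were correlated over the 144763 pairs with a parental ratio (r = 0.742, and 0.704 when centred on each chromosome), although no list is shared between them. The corrected lines derive from the parental ones, so the parental lists are not independent cell lines.

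Restricted pairs lay in groups of neighbours. When pairs with both anchors within 10 kb were joined, the 26699 pairs of H4 88-1 made 2848 groups and the 24111 of 42MGBA 53-1 made 2973. The median group held 4 and 3 pairs, and groups of 20 pairs or more held 52.5% and 52.1% of the restricted pairs. In H4 88-1 the 2 largest were a group of 237 pairs around ELF5, EHF, APIP and PDHX on chromosome 11, with a median size of 345 kb, and a group of 223 pairs at AKAP1 and CCDC182 on chromosome 17. In 42MGBA 53-1 they were a group of 302 pairs around PTGFR, IFI44 and IFI44L on chromosome 1, with a median size of 405 kb, and a group of 214 pairs around COL12A1 on chromosome 6, with a median size of 29.2 kb. Counts of pairs at a gene below are therefore not counts of separate loops.

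Strong restricted pairs also lay away from gene starts. In 42MGBA 53-1 the strongest of all, at 16.8, joined an SLC30A7 exon, chr1:101435679-101440587, to chr1:102950317-102954990, 1515 kb away, and it was at 13.2 in 42MGBA and absent from both H4 lists. On chromosome 15 a pair 182 kb apart, chr15:38998874-39003739 with chr15:39180706-39185696, was at 15.1 in 42MGBA 53-1 and 9.20 in 42MGBA and again absent from both H4 lists. It lay in the 2 Mb from 38 Mb where 967 of 1808 pairs were restricted to 42MGBA 53-1 and 11 to H4 88-1. In H4 88-1 a pair of chromosome 17 in an SLC47A1 intron, 247 kb long, was at 14.0, but was listed at 11.8 in H4 and 10.0 in 42MGBA, so that it was not restricted in the parental lists. On chromosome 1, where most restricted pairs were of 42MGBA 53-1, a pair that joined the starts of RNPEP and GPR37L1 was restricted to H4 88-1 at 13.1.

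A gene was taken as looped when a start site of a protein-coding transcript lay within 3 kb of an anchor, which held for 4395 protein-coding genes. Of these, 1452 (33.0%) had restricted pairs in H4 88-1 alone, 1325 (30.1%) in 42MGBA 53-1 alone, 153 (3.48%) in both and 1465 (33.3%) in neither.

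BCL6 encodes a transcriptional repressor best known from germinal center B cells. Among genes with restricted pairs in H4 88-1 alone it had the most, with 115 of its 160 pairs. Their strengths ran from 6.21 to 9.44 and their sizes from 391 to 1417 kb. The strongest joined the BCL6 start, chr3:187460504-187465164, to an intron of LPP at chr3:187980910-187985777, at 9.44 in H4 88-1, and was absent from 42MGBA 53-1. In the parental lists it was at 6.34 in H4 and 4.82 in 42MGBA. A much stronger loop from BCL6 to a TPRG1 intron, 1214 kb away, was listed in both lines, at 28.8 in H4 88-1 and 11.1 in 42MGBA 53-1. The gene ENSG00000285938 shares the BCL6 start and 81 of these pairs.

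ELF5, an ETS family transcription factor of mammary and lung epithelium, and ATAD1, an ATPase that removes misplaced proteins from the mitochondrial outer membrane, had restricted pairs only. All 56 pairs of ELF5 were restricted to H4 88-1, the strongest, chr11:34534354-34539112 with chr11:34912746-34917752 in an APIP exon, at 17.2. It was at 11.8 in H4 and 5.45 in 42MGBA, and 49 of the 56 pairs were absent from the 42MGBA list. All 42 pairs of ATAD1 were restricted to H4 88-1, listed in H4 and absent from 42MGBA, and the strongest reached an RNLS intron, chr10:90141772-90146757, at 18.5 in H4 88-1 and 22.7 in H4. This stood against its chromosome, since chromosome 10 had a median log2 ratio of -0.15.

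AKAP1, which anchors protein kinase A at mitochondria, and CCDC182 had 44 and 42 pairs restricted to H4 88-1, and the strongest pair at the AKAP1 start joined the 2 genes at 8.87. BMPR1B, a bone morphogenetic protein receptor, had all of its 40 pairs restricted to H4 88-1, the strongest, from a PDLIM5 intron to a BMPR1B start, at 12.9. It was at 17.6 in H4 and 6.35 in 42MGBA. The anchor pair at the IQCJ-SCHIP1 start, 422 kb from the anchor printed above, was at 13.4 in H4 88-1, and all 40 pairs of that gene were restricted to H4 88-1.

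Other genes differed in what the parental lists held. MICAL2, an enzyme that oxidizes actin, had 57 of 100 pairs restricted, but 5 of these were absent from the 42MGBA list, and the strongest had 7.80 in H4 and 7.77 in 42MGBA. UBR4, a ubiquitin ligase, had 43 of 70 pairs restricted and a median log2 ratio over all its pairs of 0.71, beside -0.066 in the parental lists. USP40, a deubiquitinase, had 45 of 65 pairs restricted, of which 40 were in H4 alone in the parental lists. In MICAL2 and UBR4 the restriction to H4 88-1 was thus mostly not present between the parental lines, in contrast to USP40, AKAP1 and ATAD1. When a pair of the other line within 10 kb at both anchors was accepted as a match, UBR4 kept 2 of its 43 restricted pairs and CCDC182 17 of 42, while ELF5 kept all 56 and BMPR1B all 40. Centred on the chromosome, the median log2 ratio fell from 0.70 to 0.21 for BCL6, from 0.71 to 0.13 for AKAP1 and from 0.79 to 0.24 for MICAL2. It fell from 1.03 to 0.48 for ELF5 and from 0.99 to 0.51 for BMPR1B. For ATAD1, USP40 and UBR4 it rose, to 1.01, 0.83 and 0.85.

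Among genes with restricted pairs in 42MGBA 53-1 alone, ERRFI1, a feedback inhibitor of the EGF receptor, led with 112 of 152 pairs restricted, at 5.81 to 11.3. The strongest joined chr1:8089055-8093861, beside the ERRFI1 start, to chr1:8367652-8372323, at 11.3 in 42MGBA 53-1 and 12.4 in 42MGBA, and was absent from both H4 lists. Its loop of highest geometric mean, from the ERRFI1 start to the SLC45A1 start 298 kb away, was 8.73 in H4 88-1 and 23.4 in 42MGBA 53-1. ERRFI1 lay on chromosome 1, with a median log2 ratio of -0.14, and its own median was -0.61.

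COL6A1 and COL6A2 encode chains of collagen VI, a matrix protein of mesenchymal cells, and lie side by side on chromosome 21. Together they had 116 pairs, of which 112 were restricted to 42MGBA 53-1 and none to H4 88-1, with a median size of 104 kb. The strongest joined their starts, chr21:47394940-47399863 with chr21:47518203-47522997, at 14.9 in 42MGBA 53-1 and 14.1 in 42MGBA, and was absent from both H4 lists, a difference of at least 3.35-fold. The median log2 ratio of these pairs was -0.63, beside -0.34 for chromosome 21 as a whole.

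FRMD6, a regulator of the Hippo pathway, had 84 of 133 pairs restricted to 42MGBA 53-1, with the strongest at 10.1 in 42MGBA 53-1 and 8.98 in 42MGBA. MAN1A2, a Golgi mannosidase, had 47 of 48. The strongest MAN1A2 pair ends at the minus-strand site printed above and joined chr1:118046023-118051032 to chr1:118436934-118441783, at 12.05 in 42MGBA 53-1, 15.4 in 42MGBA and 4.34 in H4. TTF2, a transcription termination factor, had 67 of 88, NPR3, the clearance receptor of natriuretic peptides, 67 of 74, and SEMA5A, a transmembrane semaphorin, 63 of 73. SIPA1L1, a regulator of Rap GTPases, had all of its 55 pairs restricted, the highest at 7.96, and 37 of them were also in 42MGBA alone among the parental lists. BCAR3, an adaptor of integrin signaling, had 54 of 113, ZFP36L1, which promotes decay of AU-rich messenger RNAs, 54 of 117, and ZNF839 47 of 55. Loops of BCAR3 and ZFP36L1 listed in both lines reached 20.6 and 21.4 in 42MGBA 53-1, against 9.57 and 11.3 in H4 88-1. By the same matching ZFP36L1 kept 12 restricted pairs, MAN1A2 13, BCAR3 25 and COL6A1 32, while SEMA5A kept all 63 and SIPA1L1 all 55. On chromosome 14, centring took the median log2 ratio from -0.48 to -0.075 for SIPA1L1 and from -0.55 to -0.14 for ZFP36L1. For FRMD6 and ZNF839 it went from -0.68 to -0.28 and from -0.82 to -0.42.

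**Figure D4:**
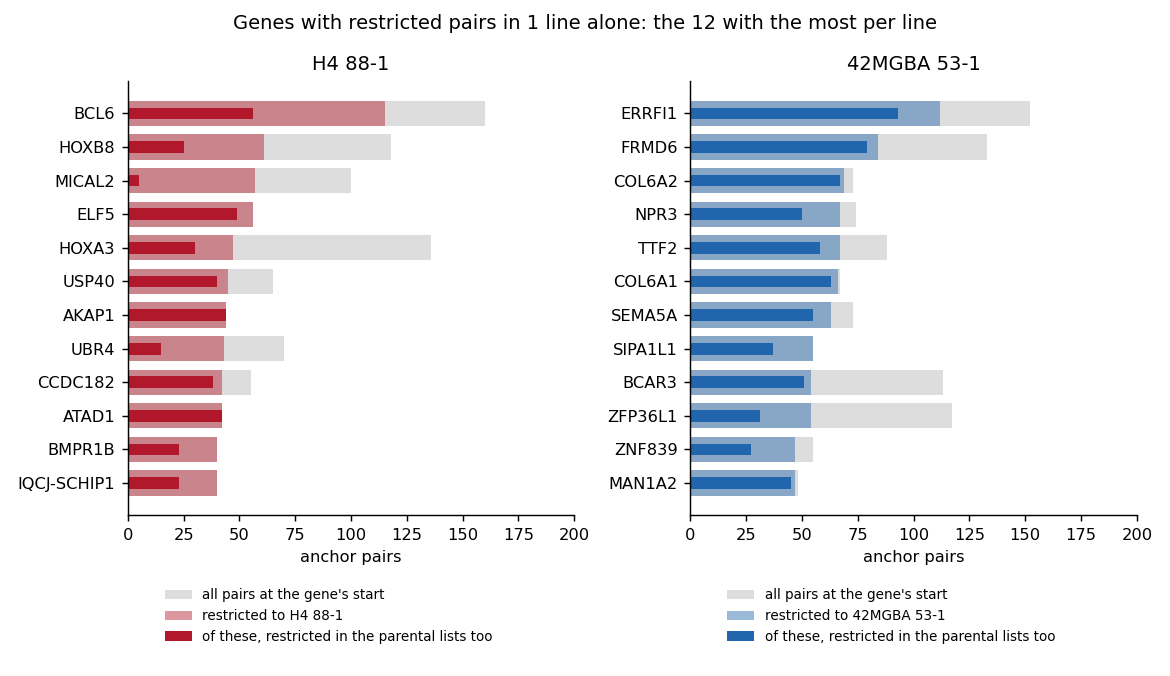
Anchor pairs (x axis) at the start sites of the 12 genes with the most restricted pairs in H4 88-1 (left) and in 42MGBA 53-1 (right) among genes with restricted pairs in 1 line alone. Gray bars count all merged pairs of a gene, pale bars those restricted to the line, and dark bars those that were also listed in its parental line and absent from the other parental line; for ATAD1 and AKAP1 all 42 and 44 restricted pairs were also restricted in the parental lists, and for MICAL2 5 of 57 were.

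Lists of genes with known roles in glioblastoma and development were then read against the 33.0% and 30.1% of all looped genes. Of 27 looped genes of the mesenchymal glioma state, 20 (74.1%) had restricted pairs in 42MGBA 53-1 alone and 0 in H4 88-1 alone. Restricted pairs in both lines were held by 4 and in neither by 3. A gene with many pairs is more easily counted, so shares of pairs are also given. Of the 787 distinct pairs of this list, 23.6% were restricted to 42MGBA 53-1 and 3.94% to H4 88-1. Over the 48658 pairs of all looped genes, the shares were 15.6% and 16.1%. The median over genes of the log2 ratio was -0.39, beside 0.12 over all looped genes, and -0.33 against -0.017 when centred on each chromosome. VIM, the intermediate filament protein of mesenchymal cells, had 43 of 61 pairs restricted to 42MGBA 53-1, the strongest at 10.0 in 42MGBA 53-1 and 9.60 in 42MGBA and absent from both H4 lists. The VIM loop printed above was listed in all 4 lists, at 6.35 in H4 88-1, 9.91 in 42MGBA 53-1, 6.77 in H4 and 11.2 in 42MGBA. THBS1, the matrix protein thrombospondin, had 42 of 152 restricted, CEBPB 18 of 112, and CCN1, a matricellular target of Hippo signaling, 16 of 41. RUNX2, TEAD1 and TGFB2 were among the genes with restricted pairs in both lines, with more in H4 88-1 (7 and 1, 9 and 3, and 13 and 3). The count of 20 genes was 9 when a pair of the other line within 10 kb at both anchors was accepted as a match, with 1 gene in H4 88-1. It was 5 when a 2-fold difference was asked for in place of absence, again with 1 gene in H4 88-1. Under that matching VIM kept 28 restricted pairs, THBS1 20, CCN1 10 and CEBPB 0.

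Extracellular matrix genes, a list with no member in common with the mesenchymal one, leaned the same way. Of 45 looped genes, 25 (55.6%) had restricted pairs in 42MGBA 53-1 alone and 4 in H4 88-1 alone, and the median was -0.31 (centred, -0.28). Of their 1199 distinct pairs, 38.0% were restricted to 42MGBA 53-1 and 3.17% to H4 88-1. The 25 and 4 genes became 20 and 0 with matching within 10 kb and 6 and 2 at the 2-fold limit. Over all looped genes, 42MGBA 53-1 and H4 88-1 then had 642 and 689 by that matching and 126 and 382 at the 2-fold limit. COL12A1, a collagen that decorates fibrils, carried 92 pairs restricted to 42MGBA 53-1 and 15 restricted to H4 88-1, and they differed in length. Those of 42MGBA 53-1 spanned 4.81 to 111 kb within and around the gene, the strongest between adjacent anchors at chr6:75817227-75822136 and chr6:75822137-75827142, at 11.3. Those of H4 88-1 spanned 779 to 1244 kb, the strongest at 10.8 in H4 88-1, 14.2 in H4 and 6.37 in 42MGBA. ADAMTS1, a matrix protease, had 43 of 58 pairs restricted to 42MGBA 53-1. COL6A3 and COL3A1, chosen after their values were seen, had 32 and 38 and none in H4 88-1. ITGA3, an integrin subunit, had 3 of 13 pairs restricted to H4 88-1 and 0 with matching within 10 kb.

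HOX genes, which set position along the body axis and are silenced by Polycomb in many tissues, leaned toward H4 88-1. Of 34 looped HOX genes, 19 (55.9%) had restricted pairs in H4 88-1 alone, 2 in 42MGBA 53-1 alone and 9 in both. Of their 1456 distinct pairs, 24.2% were restricted to H4 88-1 and 2.34% to 42MGBA 53-1, beside 16.1% and 15.6% over all looped genes. The median over genes was 0.60, but 0.13 when centred on each chromosome, and chromosomes 17 and 7, which hold the HOXB and HOXA clusters, had medians of 0.58 and 0.41. HOXB had 171 of its 400 pairs restricted to H4 88-1 (42.8%, beside 38.5% of all pairs of chromosome 17) and 17 to 42MGBA 53-1. HOXA had 154 of 708 (21.8%, beside 23.99% of all pairs of chromosome 7) and 9. HOXC had 17 of 143 (11.9%, beside 26.8% of all pairs of chromosome 12) and 0. HOXD had 10 of 205 (4.88%, beside 8.72% of all pairs of chromosome 2) and 8. Only HOXB thus exceeded the H4 88-1 share of its chromosome. The HOXB pairs restricted to H4 88-1 had a median size of 345 kb. The strongest loop of HOXB3, to an SKAP1 intron, was listed in both lines, at 25.1 in H4 88-1 and 15.0 in 42MGBA 53-1. The strongest of its 68 pairs restricted to H4 88-1 joined an intron of SKAP1 at chr17:46369058-46373635 to chr17:46664966-46669701 at 11.5 in H4 88-1, 8.58 in H4 and 6.48 in 42MGBA. The 17 HOXB pairs of 42MGBA 53-1 had a median size of 28.9 kb. HOXB2 had 9 pairs, all restricted to 42MGBA 53-1 and all absent from H4. HOXA13 had 36 of 271 pairs restricted to H4 88-1 and 7 to 42MGBA 53-1, and its loop to a JAZF1 intron was strong in both, at 25.6 and 15.3. With matching within 10 kb the 19 genes of H4 88-1 alone became 11 and the 2 of 42MGBA 53-1 alone became 4, and HOXB3 kept 14 of its 68 pairs. At the 2-fold limit the counts were 16 and 0.

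HOXB8 and HOXA3 had the most restricted pairs of the HOX genes without any in 42MGBA 53-1, with 61 of 118 and 47 of 136. Of these, 25 and 30 were also in H4 alone among the parental lists, and 36 and 11 were kept with matching within 10 kb. The median log2 ratios of HOXB8 and HOXA3 were 0.67 and 0.75, and 0.097 and 0.34 when centred on each chromosome.

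Of 57 looped developmental transcription factor genes outside the HOX clusters, 27 had restricted pairs in H4 88-1 alone and 20 in 42MGBA 53-1 alone (47.4% and 35.1%). Of their 1202 distinct pairs, 15.4% were restricted to H4 88-1 and 16.1% to 42MGBA 53-1. These shares were near the 16.1% and 15.6% over all looped genes, so the values below describe single genes and not the list. FOXF1, a factor of lung and gut mesenchyme, had 32 of 83 pairs restricted to H4 88-1, and TBX2, a T-box repressor, 20 of 21, at up to 11.3. Matching within 10 kb left 10 for FOXF1 and 0 for TBX2. SNAI2, which drives epithelial to mesenchymal transition, had 32 of 258 restricted to 42MGBA 53-1, beside 11.6% of all pairs of chromosome 8, which holds it. GLI3, an effector of Hedgehog signaling, had 31 of 31 restricted to 42MGBA 53-1, the strongest within the gene at 8.99 and absent from both H4 lists. DLX2, a homeobox factor of forebrain interneurons, had 20 of 92, all in 42MGBA 53-1. With the same matching GLI3 kept all 31, DLX2 4 and SNAI2 1. GLI3 went against its chromosome, since chromosome 7 had a median of 0.41 and GLI3 -0.69.

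Neural progenitor and astrocyte genes had few looped members. SOX2, a factor of neural stem cells, had 11 pairs, all restricted to H4 88-1. The strongest runs from the plus-strand site printed above at the SOX2 start to chr3:181973390-181978321 without a protein-coding gene, at 13.2 in H4 88-1 and 12.4 in H4, and was absent from 42MGBA 53-1 and 42MGBA. HES1, a Notch target, had 11 of 23 pairs restricted to H4 88-1, TCF4, a neural helix-loop-helix factor, 10 of 14, and DLL3, a Notch ligand, 7 of 7. Of the 8 looped progenitor genes, 5 (62.5%) had restricted pairs in H4 88-1 alone. The other 3 (37.5%), TCF12, INSM1 and NCAM1, named after their values were seen, had 2, 1 and 1 in 42MGBA 53-1. Of 12 looped astrocyte genes, 4 (33.3%) had restricted pairs in H4 88-1 alone, 2 (16.7%) in 42MGBA 53-1 alone, 1 in both and 5 in neither. The H4 88-1 share was near the 33.0% of all looped genes. SLC1A2, the glial glutamate transporter, had 32 of 34 pairs restricted to H4 88-1, at up to 13.4, and lies in the same 2 Mb of chromosome 11 as ELF5, where 652 of 832 pairs were restricted to H4 88-1. GFAP, the astrocyte filament protein, had 10 of 12 and NFIB, a glial transcription factor, 16 of 16, all in H4 88-1. On chromosomes 11 and 17, which hold SLC1A2 and GFAP, 39.1% and 38.5% of all pairs were restricted to H4 88-1. On chromosome 9, which holds NFIB, the share was 20.5%. HEY1 and GLUL had 8 of 21 and 3 of 38 in 42MGBA 53-1. When matched within 10 kb, SOX2 kept all 11 restricted pairs, TCF4 all 10, DLL3 all 7 and NFIB all 16, while SLC1A2 kept 15, HEY1 1, and HES1 and GFAP 0.

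Axon guidance genes split by gene. Of 29, 13 had restricted pairs in H4 88-1 alone and 9 in 42MGBA 53-1 alone (44.8% and 31.0%). Of their 394 distinct pairs, 28.2% were restricted to H4 88-1 and 28.7% to 42MGBA 53-1. The semaphorin genes SEMA3C and SEMA3E had all of their 28 and 12 pairs restricted to H4 88-1 and absent from 42MGBA, at up to 13.2 and 12.01, while SEMA5A belonged to 42MGBA 53-1. The guidance ligand SLIT2 had 14 of 15 restricted to H4 88-1, and its receptor ROBO1 27 of 49 restricted to 42MGBA 53-1, at up to 11.3, on chromosome 3 with a median of 0.49. EPHB3, an ephrin receptor, had 20 of 39 in H4 88-1, and the semaphorin receptors NRP1 and NRP2 had 8 of 8 and 7 of 17 in 42MGBA 53-1. With matching within 10 kb, SLIT2, ROBO1 and EPHB3 kept 0 restricted pairs, so each of them lay beside a pair of the other line, while SEMA3C and SEMA3E kept all 28 and 12 and NRP1 all 8.

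The SEMA3C region held the strongest restricted loops of chromosome 7 for both lines. In H4 88-1 the pair chr7:80328882-80333836 with chr7:81086389-81091289, 757 kb apart, had 25.03, the highest strength of any restricted pair, and was at 29.9 in H4 and absent from 42MGBA 53-1 and 42MGBA. In 42MGBA 53-1 the pair chr7:80844959-80849664 with chr7:81057196-81062001, 212 kb apart, had 14.1 and was at 11.3 in 42MGBA and absent from H4 88-1 and H4. None of these anchors overlapped a protein-coding gene. Within the 2 Mb from 80 Mb on chromosome 7, 276 of 971 pairs were restricted to H4 88-1 and 188 to 42MGBA 53-1.

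Of 15 looped glioblastoma driver genes, 5 (33.3%) had restricted pairs in H4 88-1 alone and 5 (33.3%) in 42MGBA 53-1 alone. These shares were near the 33.0% and 30.1% of all looped genes, so the values below describe single genes and not the list. The cyclin genes CCND2 and CCND1 had 15 of 18 and 11 of 41 pairs restricted to H4 88-1, at up to 9.85 and 12.7. Their median log2 ratios were 0.77 and 0.75, and 0.31 and 0.19 when centred on each chromosome. MYC had 16 of 66 in 42MGBA 53-1, CDK6, a partner of D-type cyclins, 6 of 26, and CDKN2C, an inhibitor of CDK6, 9 of 9. PIK3R1, the regulatory subunit of PI3 kinase, had 5 of 10 pairs restricted to H4 88-1 and 1 to 42MGBA 53-1. The PIK3R1 pair printed above was at 6.93 in H4 88-1, with 6.82 in H4 and 7.07 in 42MGBA. PDGFRA had 4 pairs restricted to each line among 34. When matched within 10 kb, CDKN2C kept all 9, CCND2 6, MYC 4, CCND1 2, PIK3R1 2 and CDK6 0, and PDGFRA kept 4 in 42MGBA 53-1 and 0 in H4 88-1.

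Clustered protocadherins are cell adhesion genes that neurons choose from alternative promoters by looping to shared enhancers. Of 42 looped members, which share many anchors, 17 had restricted pairs in 42MGBA 53-1 alone and 8 in H4 88-1 alone (40.5% and 19.0%). With matching within 10 kb the counts were 5 and 4. In the gamma cluster, PCDHGB2 had 23 of 31 and PCDHGA4 21 of 30 pairs restricted to 42MGBA 53-1, while PCDHGB7 had 11 of 14 and PCDHGA10 8 of 10 restricted to H4 88-1. The strongest pairs of both sets ended in DIAPH1 introns, at 10.1 for PCDHGB2 and PCDHGA4 and at 9.41 for PCDHGB7 and PCDHGA10. In the alpha cluster, PCDHA4 had 15 of 16 restricted to 42MGBA 53-1, and the pair printed above was at 12.2 in 42MGBA 53-1, 8.72 in 42MGBA and 5.78 in H4. PCDHA13 had 3 of 8 restricted to H4 88-1. With matching within 10 kb, PCDHA4 and PCDHA13 kept 0, PCDHGB2 9, PCDHGA4 7, PCDHGB7 4 and PCDHGA10 2.

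Of 18 cohesin and CTCF genes, 5 were looped, and of 32 Polycomb genes, 9. STAG1, the alternative to STAG2, had 11 of 18 pairs restricted to H4 88-1, the strongest, to a PPP2R3A exon, at 10.5 in H4 88-1, 9.65 in H4 and 5.22 in 42MGBA. CTCFL, a germline relative of CTCF, had 5 of 27 restricted to 42MGBA 53-1. The other looped members, named after their values were seen, were SMC3 with 2 in H4 88-1 and PDS5A and CTCF with 1 each in 42MGBA 53-1. Of 9 looped Polycomb genes, 4 (44.4%) had restricted pairs in H4 88-1 alone and 2 (22.2%) in 42MGBA 53-1 alone. Of their 58 distinct pairs, however, 15.5% were restricted to H4 88-1 and 17.2% to 42MGBA 53-1, near the 16.1% and 15.6% over all looped genes. PCGF1 had 5 of 6 and PHC2 4 of 4 pairs restricted to 42MGBA 53-1, and PHC3 3 of 3 restricted to H4 88-1. Of the genes that the study names for their loops, PKNOX2 had no restricted pair among 8, EDN1 had 2 of 47 in H4 88-1, and SH3RF3 had 25 of 96 in 42MGBA 53-1. With matching within 10 kb, STAG1 kept 9, SH3RF3 16, PHC3 3 and PHC2 4, and CTCFL, PCGF1 and EDN1 kept 0.

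**Figure D5:**
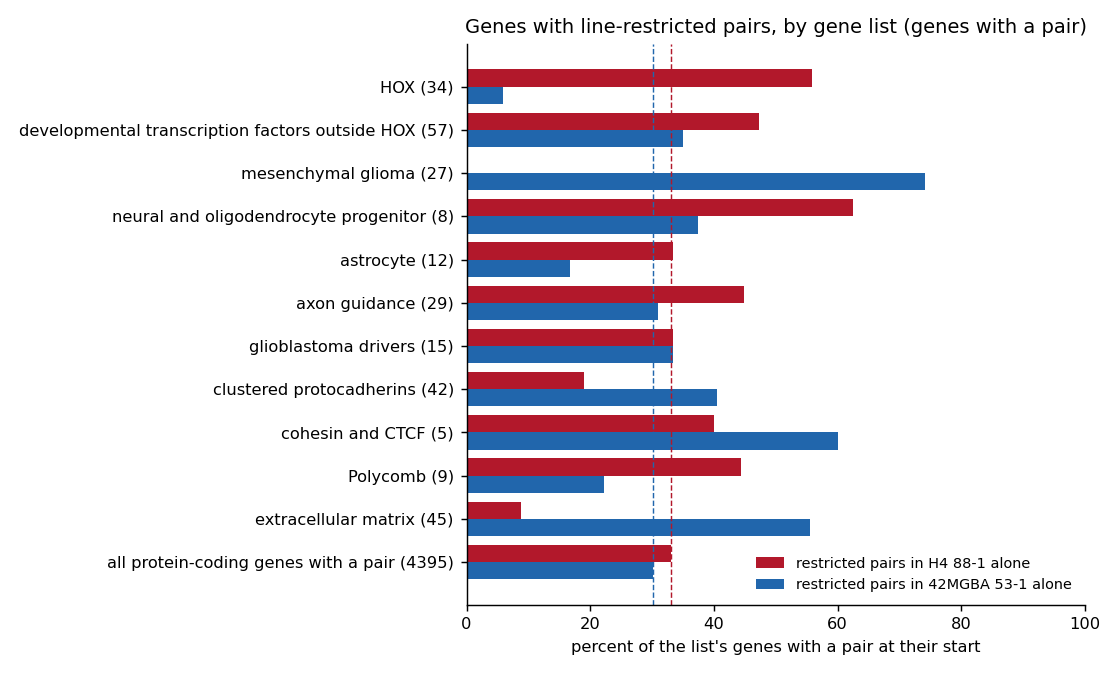
Percent of the looped genes of each list (x axis, number of looped genes in parentheses) with restricted pairs in H4 88-1 alone (red) or in 42MGBA 53-1 alone (blue). Dashed lines mark the shares over all 4395 looped genes, 33.0% and 30.1%; the mesenchymal glioma and extracellular matrix lists exceed the blue line with 74.1% and 55.6%, and the HOX list exceeds the red line with 55.9%.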

How the data were processed

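Hi-C loops were taken from 4 deposited lists, 1 per cell line. The labels give 2 replicates per line and 1 list for both, and how they were combined is not given in the sources used here. The authors made libraries with the Arima kit, aligned reads to hg19 with Bowtie (version not given in the sources used here), corrected bias with HiCorr, enhanced the maps with DeepLoop, and ranked 5 kb anchor pairs by the resulting loop signal. Each deposited list holds the 300000 pairs of highest signal. The signal is neither a read count nor scaled between lists, so depth is unknown here, no counting error can be given, and pairs below the end of a list are absent rather than 0. One list for both replicates leaves no spread, and no test was made.

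The top 100000 pairs of each corrected line were merged on both anchors, and ratios were taken as log2 of H4 88-1 over 42MGBA 53-1. Genes were protein-coding genes of the GRCh37 annotation with a start within 3 kb of an anchor. Members and gene lists were chosen with earlier results of these data known. Genes were named by a rule: the 12 with the most restricted pairs in each line among genes with such pairs in that line alone, list members with 3 or more (up to 4 per list and line), and those the study names for their loops. Pairs named were the strongest restricted one on each of the 5 chromosomes with the most, those of largest ratio and those of highest geometric mean. The CTCF core consensus was searched on both strands of hg19 anchors. Neighbouring pairs were joined within 10 kb. Alternatives were other list depths, matching within 10 kb, a fold of 2 in place of absence, scaling of the lists, ranks and autosomes alone. RNA-seq was not analysed here, and some list members that the rule would name are not reported here. Scripts ran in Python 3.11.15 with pandas 2.3.3, numpy 2.4.6 and scipy 1.17.1, plots were drawn with matplotlib 3.10.9, and the scripts were tested on simulated data.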

Additional observations from a re-analysis of the deposited data

Results flagged for a closer look

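In some places the sign of the strength ratio differed between the corrected and the parental lines. With 1 list per line, none of these differences was tested, and clone and STAG2 status cannot be told apart. Over all merged pairs the median log2 ratio of the H4 to the 42MGBA line was 0.081 in the corrected and -0.13 in the parental lines, a gap that also enters every value below.

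Corrected and parental medians were correlated over chromosomes (r = 0.90). Without scaling of the lists, the chromosome medians changed sign on 6 of 23 chromosomes. They were 0.40 and -0.084 on chromosome 6, 0.056 and -0.19 on chromosome 8, and 0.56 and -0.085 on chromosome 11, each value being first for the corrected and then for the parental lines. The widest of these gaps was that of chromosome 11. On chromosomes 18, 19 and 22 the medians were 0.11 and -0.0079, 0.16 and -0.084, and 0.15 and -0.28.

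Among the named genes, the neighbouring gamma protocadherins PCDHGA10, PCDHGA11 and PCDHGB7 had medians of 0.91, 0.75 and 0.75 in the corrected and -0.24, -0.21 and -0.20 in the parental lines. PDGFRA, a growth factor receptor, had 0.50 and -0.61, and PIK3R1 had 0.56 and -0.096. The transcription factor genes FOXF2, RUNX2 and PKNOX2 had 0.69 and -0.42, 0.58 and -0.016, and 0.23 and -0.22. ITGA3 had 0.76 and -0.036, and UBR4 0.71 and -0.066. A pair held by 1 parental list alone was given the minimum of the other list, which was 4.14 for H4 and 4.49 for 42MGBA. Parental values as near 0 as those of RUNX2, ITGA3 and UBR4 therefore do not give a direction.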

How the results depend on the processing

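The counts depended on how a difference was called, while the size difference did not reverse. The 26699 pairs restricted to H4 88-1 and 24111 restricted to 42MGBA 53-1 became 8412 and 6619 from the top 50000 of each list, 81022 and 79469 from the top 200000, 11063 and 10416 when a pair of the other line within 10 kb was accepted, 2848 and 2973 when neighbours were joined, and 5887 and 1683 at a 2-fold difference. At 1.5-fold, 36997 and 15728 pairs passed. The 2-fold counts were 3896 and 2777 with scaled lists, 2395 and 739 among pairs listed in both, and 2947 and 4779 with ratios centred on each chromosome. Median restricted sizes ran from 320.5 to 417 kb in H4 88-1 and from 213 to 256 kb in 42MGBA 53-1, except 325 kb at 2-fold. With neighbours joined, chromosome 7 held 8.15% of the H4 88-1 groups and chromosome 1 held 10.6% of those of 42MGBA 53-1. The overall median ratio turned to -0.0061 with scaled lists and -0.098 by ranks.

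Genes restricted to 1 line alone numbered 689 and 642 with matching within 10 kb and 382 and 126 at 2-fold. The 20 mesenchymal genes became 9 and 5, the 25 matrix genes 6 at 2-fold, and the 19 HOX genes 11 with matching within 10 kb. With the variable positions of the CTCF consensus opened to any base (CCANNAGNNGGC), 20.9%, 20% and 16.2% of anchors held it in the shared, H4 88-1 and 42MGBA 53-1 sets. The chromosome centring and the gene list alternatives were chosen after seeing the data. No paired analysis was possible because 1 list is given for both replicates of a line.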
